A study of Mus musculus with 12 samples.

Results

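The response of bone marrow-derived macrophages (BMDM) to 8 h of lipopolysaccharide (LPS) was measured by RNA-seq as the difference between 4 stimulated libraries (M1-8 h) and 4 unstimulated libraries (M0), out of 12 libraries in the series. BMDM are macrophages grown in culture from mouse bone marrow with macrophage colony-stimulating factor (M-CSF, encoded by Csf1). Both sides of the comparison held 2 wild type (wt) and 2 Treml4-/- libraries, all from mice on a C57BL6 background, and the genotype entered the test as a covariate. M0 cells received the PBS vehicle and M1-8 h cells received LPS at 100 ng/mL; the labels give neither the age of the mice nor the hour at which the vehicle-treated cells were harvested. The other 4 libraries, from cells given LPS for 12 h, served only in the filter on low values and in the size factors. The 8 libraries held 49092095 to 58500792 reads on genes. Treml4, the receptor gene deleted in the mutant, measured 8.35 and 6.57 CPM in wt and 0 and 0 CPM in Treml4-/- cells at M0 and 3.997 and 3.96 CPM in wt and 0 and 0 CPM in Treml4-/- cells at M1-8 h, and a count of 0 allows up to 0.0611 CPM in the shallowest of these libraries.

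LPS is sensed by the receptor TLR4 together with MD-2 (Ly96) and CD14. One branch of signalling from TLR4, through MyD88, frees NF-kB and AP-1 factors to switch on inflammatory genes, and another, through TRIF (Ticam1), leads to interferon-β, which acts back on the cells through STAT2 and IRF9 to switch on antiviral genes. Macrophages exposed to LPS are known to turn to glycolysis, to make nitric oxide, prostaglandins and itaconate, and to stop dividing.

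Genes whose calls on CPM and after median of ratios scaling were the same are described here as having risen or fallen. A call needed a Benjamini-Hochberg adjusted p under 0.05 from limma together with a difference of 1.4-fold on the log2(CPM + 1) scale, on which the change of weakly expressed genes is understated. Group means are given ± SD over 4 libraries, and log2 differences, M1-8 h minus M0, ± SE on CPM unless another scaling is named. Both scalings are given because the libraries differed in composition. On CPM, which divides by the total count, 2067 of the 12086 genes tested (17.1%) were higher at M1-8 h and 7226 (59.8%) were lower. After median of ratios scaling, which divides by the typical gene, 3760 (31.1%) were higher and 3794 (31.4%) were lower. The median log2 difference of all genes tested was −0.72 on CPM and −0.04 after median of ratios scaling, so a gene with no difference in CPM lies above the typical gene. The 2067 genes higher on CPM were all higher on the other scaling, and all 3794 genes lower on the other scaling were lower on CPM, so 17.1% of the genes rose and 31.4% fell on both. Another 3432 genes were lower on CPM only and 1693 were higher after median of ratios scaling only. For these the call depended on the scaling, and none was called in opposite directions. Median of ratios scaling divides the CPM of a library by 1 factor, 1.38 to 1.52 at M0 and 0.79 to 0.89 at M1-8 h. Log2 differences therefore move up for nearly every gene, so the nesting and the lack of opposite calls were largely fixed in advance. Genes that rose are thus those called higher on CPM, and genes that fell those called lower after median of ratios scaling. Counts of list members below stand beside 17.1% and 31.4% of all genes tested. In 10065 genes (83.3%) the 4 M1-8 h libraries did not overlap the 4 M0 libraries in CPM. RNA per cell was not measured, and in bulk samples fewer cells of a type and less RNA per cell cannot be told apart.

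**Figure D1:**
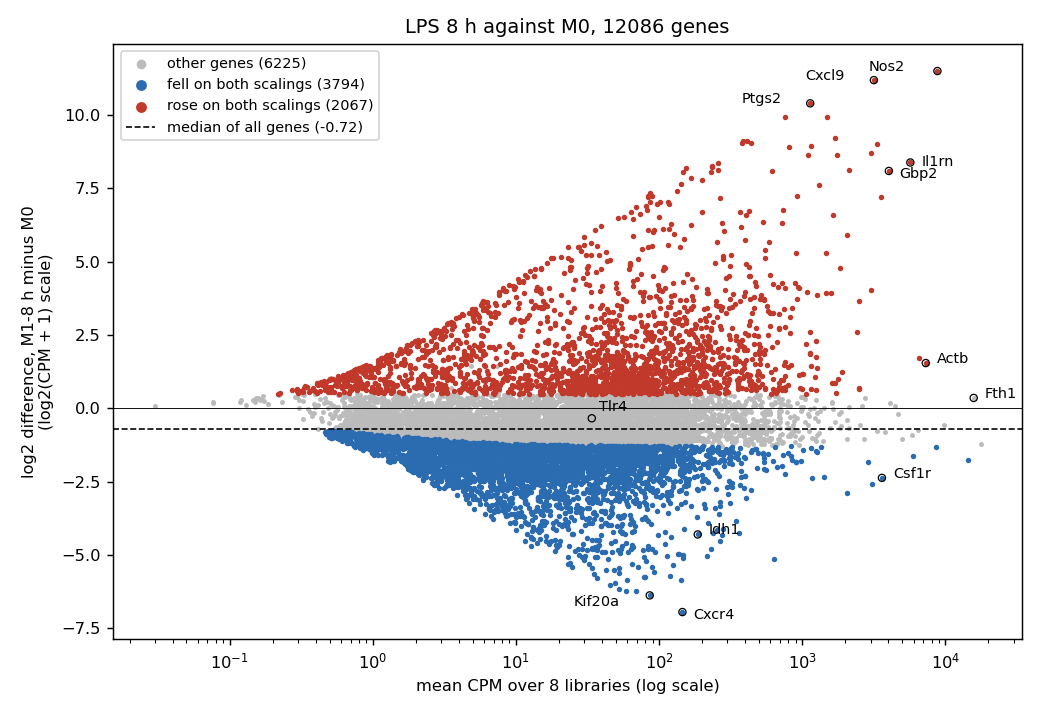
Each point is 1 of the 12086 genes tested, with its mean CPM over all 8 libraries on the x axis (log scale) and its log2 difference, M1-8 h minus M0, on the log2(CPM + 1) scale on the y axis. Red points (2067 genes) rose and blue points (3794 genes) fell on both scalings, grey points are the rest, and the dashed line marks the median of all genes, −0.72.

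The genes that rose and fell were chosen by their CPM, a share of reads, in these same libraries. The direction in which their summed shares moved was therefore fixed by that choice, and only the size is described. The 2067 genes that rose together held 11.5% to 11.8% of the reads in the M0 libraries and 49.5% to 51.4% in the M1-8 h libraries. The 3794 genes that fell held 29.7% to 30.2% of the reads at M0 and 7.21% to 7.86% at M1-8 h. Genes at 1000 CPM or more numbered 98 to 105 at M0 and 140 to 149 at M1-8 h, while the median CPM of the genes tested went from between 20.8 and 23.4 down to between 11.5 and 12.6. On CPM, 662 genes were at least 4-fold higher, 196 at least 16-fold and 73 at least 64-fold, against 1363, 143 and 6 genes that were lower by the same factors.

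**Figure D2:**
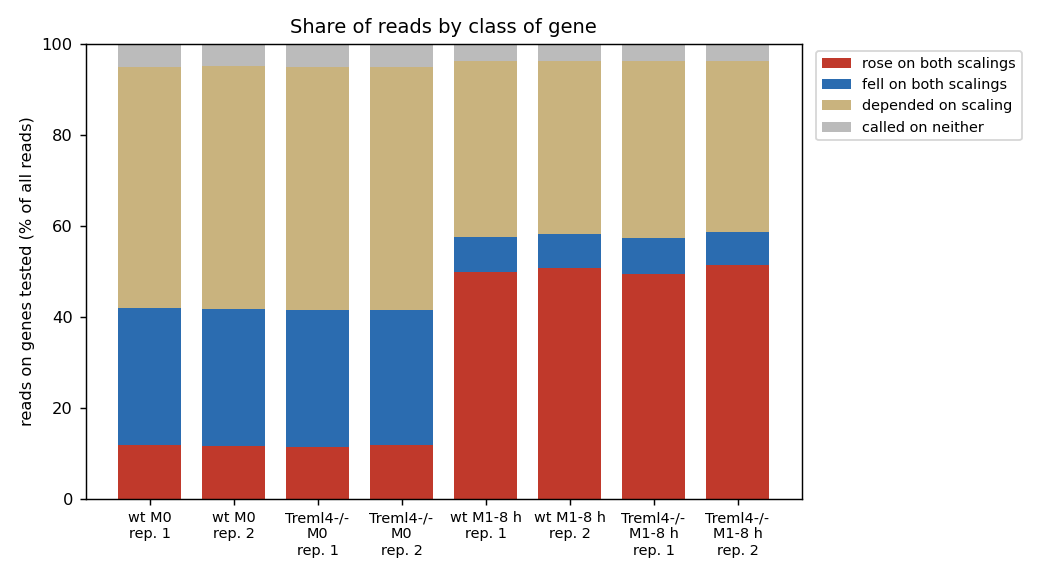
Bars show, for each of the 8 libraries (x axis), the percentage of reads (y axis, from 0 to 100) on genes that rose, fell, had a call that depended on the scaling or were called on neither scaling. The share of the genes that rose was 11.5% to 11.8% in the 4 M0 libraries and 49.5% to 51.4% in the 4 M1-8 h libraries. The classes were called in these same libraries, so the direction of these shifts was fixed by that choice.

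On the log2(CPM + 1) scale the largest rise was that of Nos2, the inducible nitric oxide synthase. Nos2 measured 3.39 and 6.904 CPM in wt and 5.15 and 5.42 CPM in Treml4-/- cells at M0 and 19425 and 17094 CPM in wt and 17083 and 16756 CPM in Treml4-/- cells at M1-8 h. Its log2 difference was 11.49 ± 0.15 (SE, adjusted p = 5.08e-12). Its mean at M1-8 h, 17589.5 ± 1234 CPM (SD, n = 4), was a share of the reads near that of Fth1 (ferritin heavy chain), the gene with the highest mean CPM at M1-8 h, at 17667 ± 774 CPM. Fth1 had been at 13867 ± 977 CPM at M0, with a log2 difference of 0.35 ± 0.09 on CPM that was not called and one of 1.15 after median of ratios scaling that was. CPM are not per transcript length, so levels of different genes are compared here only as shares of reads. The chemokine gene Cxcl9 measured 0.964 and 2.69 CPM in wt and 1.81 and 1.65 CPM in Treml4-/- cells at M0 and 6081 and 6973 CPM in wt and 5617 and 6647 CPM in Treml4-/- cells at M1-8 h (log2 difference 11.18 ± 0.17). Ptgs2, which encodes the inducible prostaglandin synthase COX-2, went from 0.366 and 1.14 CPM in wt and 0.896 and 0.411 CPM in Treml4-/- cells to 1866 and 2082 CPM in wt and 2239 and 2909 CPM in Treml4-/- cells (log2 difference 10.39 ± 0.17). The largest rises were ranked only among genes whose M0 and M1-8 h libraries did not overlap, so the lack of overlap in these 3 genes was a condition of their choice. The others among the 10 largest rises were the chemokines Ccl5 (9.93 ± 0.13) and Cxcl10 (9.20 ± 0.07), the protease inhibitor Serpina3g (9.92 ± 0.10), the GTPase Iigp1 (9.12 ± 0.23), the PYHIN gene Ifi205 (9.11 ± 0.17), the cytokine subunit Il27 (9.04 ± 0.13) and the uridine phosphorylase Upp1 (9.02 ± 0.09), all given as log2 differences ± SE. Serpina3g, Ifi205 and other genes with close paralogs may share reads with them, so that their own levels are uncertain.

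By the number of reads gained, Nos2 was followed by Il1rn, the secreted antagonist of the interleukin-1 receptor, which went from 25.7 and 35.4 CPM in wt and 36.3 and 36.4 CPM in Treml4-/- cells to 12592 and 10062 CPM in wt and 11259.6 and 11497 CPM in Treml4-/- cells with no overlap. The guanylate-binding protein gene Gbp2 gained the next most, from 28.6 ± 2.801 to 8029 ± 738 CPM, ahead of Actb (β-actin), from 3727 ± 96.9 to 10866 ± 1092 CPM, and the peroxiredoxin Prdx1, from 3045 ± 163 to 10083 ± 505 CPM. Irg1 (Acod1), which makes itaconate from a citrate cycle intermediate, measured 45.8 and 56.3 CPM in wt and 42.9 and 45.2 CPM in Treml4-/- cells at M0 and 7015 and 6776 CPM in wt and 7534 and 6950.0 CPM in Treml4-/- cells at M1-8 h. Saa3, an acute-phase protein gene, rose from 11.9 ± 1.66 to 6604 ± 316 CPM. The antiviral gene Rsad2 (viperin) and the ubiquitin ligase gene Rnf213 completed the 10 largest gains together with Cxcl9, with 6060.2 ± 1194 and 5665 ± 398 CPM at M1-8 h against 13.6 ± 1.84 and 349 ± 37.3 CPM at M0.

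**Figure D3:**
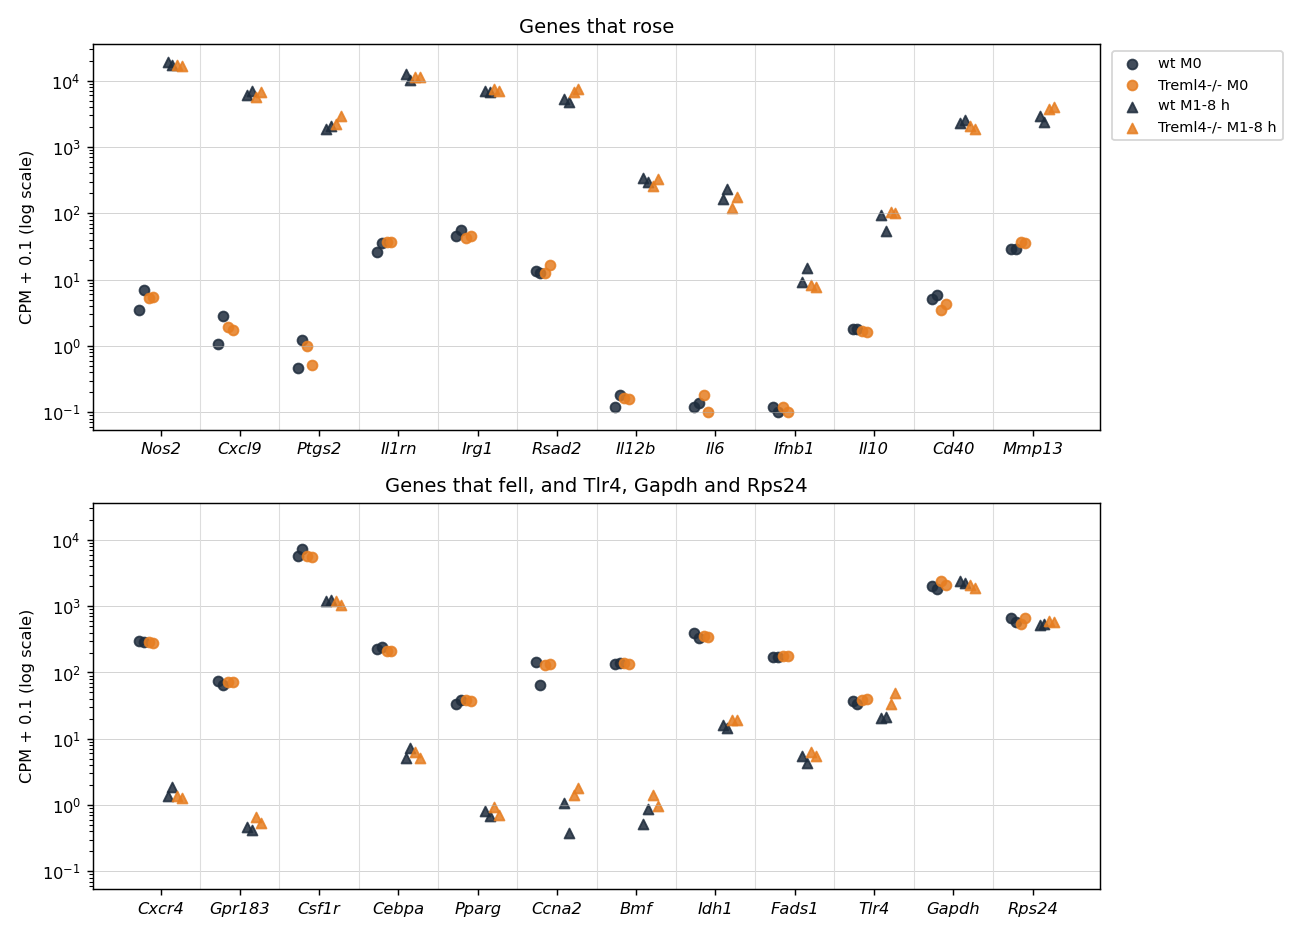
CPM of 24 genes in each of the 4 M0 (circles) and 4 M1-8 h (triangles) libraries, wt in dark and Treml4-/- in orange, on a log y axis of CPM + 0.1. The upper row holds genes that rose, the lower row genes that fell and, at its right, Tlr4, Gapdh and Rps24, whose groups overlap.

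The receptor that senses LPS was called on neither scaling. Tlr4 measured 36.99 and 33.7 CPM in wt and 37.8 and 39.5 CPM in Treml4-/- cells at M0 and 20.2 and 21.2 CPM in wt and 33.5 and 48.2 CPM in Treml4-/- cells at M1-8 h, and the groups overlapped (log2 difference −0.34 ± 0.17, adjusted p = 0.0772). Of 22 tested genes of LPS reception and signalling, 6 rose and 2 fell, beside 17.1% and 31.4% of all genes tested, and the call of 11 depended on the scaling. Those that rose included the kinase Map3k8 (log2 difference 2.39 ± 0.11), the adaptor Myd88 (log2 difference 1.82 ± 0.07) and the kinases Tbk1 (log2 difference 1.21 ± 0.10) and Ikbke (log2 difference 1.12 ± 0.06) of the interferon branch. Cd14 also passed the test (log2 difference 0.71 ± 0.11) although its libraries overlapped. The kinase Irak1 fell from 173 ± 6.66 to 45.3 ± 2.51 CPM and Ly86 (MD-1) from 42.8 ± 1.98 to 16.3 ± 1.76 CPM.

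Of 14 NF-kB subunits, inhibitors and kinase subunits, 9 rose and none fell, with a median log2 difference of 1.47 on CPM. The inhibitors were among the largest of these: Nfkbie went from 35.3 ± 7.27 to 376 ± 64.2 CPM, Nfkbia from 148 ± 14.3 to 632 ± 51.9 CPM and the nuclear IkB protein Nfkbiz from 16.5 ± 2.62 to 93.3 ± 13.4 CPM. The subunit genes Rel (log2 difference 2.00 ± 0.12), Nfkb1 (log2 difference 1.58 ± 0.09), Nfkb2 (log2 difference 1.43 ± 0.14) and Relb (log2 difference 0.90 ± 0.09) rose, and Rela went from 147 ± 11.5 to 172 ± 23.4 CPM, with overlapping libraries and a call that depended on the scaling.

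Most feedback inhibitors of the response rose. Among 24 feedback inhibitors, 17 rose and 2 fell. Socs1 and Socs3, which block cytokine receptor signalling through JAK kinases, measured 0.561 ± 0.109 and 16.9 ± 0.93 CPM at M0 and 194 ± 22.9 and 1429 ± 134 CPM at M1-8 h. Il10, the anti-inflammatory cytokine, went from 1.697 and 1.69 CPM in wt and 1.57 and 1.53 CPM in Treml4-/- cells to 95.6 and 53.01 CPM in wt and 104 and 102 CPM in Treml4-/- cells. The ubiquitin-editing enzyme gene Tnfaip3 (A20) rose from 44.5 ± 3.27 to 893 ± 32.4 CPM, and Zfp36, whose product destabilizes cytokine messenger RNA, from 181 ± 13.8 to 1194 ± 118 CPM. The phosphatase genes Dusp2, Dusp5, Dusp16 and Dusp1 rose, with log2 differences of 4.06 ± 0.10, 3.52 ± 0.11, 2.79 ± 0.10 and 2.68 ± 0.11. The members that fell were another phosphatase, Dusp4 (log2 difference −2.90 ± 0.11), and the inositol phosphatase Inpp5d, known as SHIP-1 (log2 difference −2.68 ± 0.11).

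Most cytokine and growth factor genes that passed the filter rose. Of 27 tested members, 22 rose and 5 fell, with a median log2 difference of 3.09. The other 9 of the 36 genes of this list were under the filter, and genes near 0 at M0 passed it only through the libraries given LPS, as in the lists below. Il12b, the p40 subunit of interleukin-12 and interleukin-23, measured 0.0193 and 0.0787 CPM in wt and 0.0611 and 0.0561 CPM in Treml4-/- cells at M0 and 337 and 299.9 CPM in wt and 261 and 332 CPM in Treml4-/- cells at M1-8 h. Il6 measured 0.0193 and 0.0393 CPM in wt and 0.0815 and 0 CPM in Treml4-/- cells and then 164 and 230.0 CPM in wt and 119 and 174 CPM in Treml4-/- cells. Both genes were near the floor of detection at M0 in all 4 libraries and above 100 CPM in all 4 after LPS. Il1b rose from 0.54 ± 0.273 to 266 ± 72.8 CPM, Il1a from 0.127 ± 0.0598 to 29.8 ± 2.29 CPM, and Tnf, which was already present at M0, from 40.7 ± 6.06 to 615 ± 37.9 CPM. The interferon-β gene Ifnb1 measured 0.0193 and 0 CPM in wt and 0.0204 and 0 CPM in Treml4-/- cells at M0 and 8.98 and 14.9 CPM in wt and 8.03 and 7.703 CPM in Treml4-/- cells at M1-8 h. Il33 had no reads in any M0 library and 2.41 ± 1.26 CPM at M1-8 h, at least 164-fold higher than 3 reads over the 4 M0 libraries. The M-CSF gene itself, Csf1, rose from 0.679 ± 0.123 to 13.5 ± 2.27 CPM. The 5 members that fell were Pdgfb (167 ± 24.9 to 9.89 ± 0.556 CPM), Pdgfa, Il16, Tgfb1 and Igf1, with log2 differences between −3.94 ± 0.10 and −1.47 ± 0.07.

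Among 21 tested chemokine genes, 18 rose and 1 fell, with a median log2 difference of 4.18. Beside the CXCR3 ligands Cxcl9 and Cxcl10, the third, Cxcl11, rose from 0.0927 ± 0.0567 to 166 ± 33.7 CPM. The monocyte attractants Ccl2, Ccl7 and Ccl12 went from 0.511 ± 0.213, 0.119 ± 0.094 and 0.0444 ± 0.0199 CPM to 469.5 ± 156, 177 ± 61.6 and 79.04 ± 21.4 CPM. Ccl3 and Ccl4 rose from M0 levels of 27.6 ± 0.763 and 9.29 ± 0.96 CPM to 146 ± 8.68 and 186 ± 13.4 CPM. Cxcl14 was the member that fell (6.98 ± 1.14 to 1.23 ± 0.589 CPM), and Pf4 and Ccl6 depended on the scaling.

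Receptors for chemoattractants moved in both directions, with 12 of 26 tested members risen and 6 fallen. These were 46.2% and 23.1%, beside 17.1% and 31.4% of all genes tested, so the share that fell was under that of all genes. Cxcr4, the receptor for the bone marrow chemokine CXCL12, showed the largest fall of all genes on the log2(CPM + 1) scale: it measured 299 and 289.9 CPM in wt and 291 and 279.7 CPM in Treml4-/- cells at M0 and 1.27 and 1.801 CPM in wt and 1.25 and 1.17 CPM in Treml4-/- cells at M1-8 h (log2 difference −6.95 ± 0.08, adjusted p = 3.56e-12). Gpr183, which guides cells to oxysterols, went from 74.2 and 63.8 CPM in wt and 71.4 and 71.8 CPM in Treml4-/- cells to 0.363 and 0.316 CPM in wt and 0.564 and 0.439 CPM in Treml4-/- cells. The fractalkine receptor Cx3cr1 fell from 72.1 ± 10.3 to 1.15 ± 0.176 CPM and the sphingosine phosphate receptor S1pr1 from 43.9 ± 3.01 to 1.83 ± 0.501 CPM. In these 4 genes every M1-8 h library was below every M0 library, which the ranking of the largest falls required of Cxcr4. The formyl peptide receptors Fpr2 and Fpr1 rose to 183 ± 22.5 and 62.1 ± 4.88 CPM from 1.79 ± 0.564 and 1.19 ± 0.18 CPM, Ccrl2 rose from 7.44 ± 0.632 to 560.5 ± 100.4 CPM and Ccr7 from 0.143 ± 0.098 to 11.8 ± 4.58 CPM.

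All 40 interferon-stimulated antiviral genes of the list rose, with a median log2 difference of 3.83 on CPM and 4.59 after median of ratios scaling. Their summed level went from between 2042 and 2203 CPM at M0 to between 41760.3 and 48134 CPM at M1-8 h. Rsad2 measured 13.2 and 12.3 CPM in wt and 12.5 and 16.3 CPM in Treml4-/- cells at M0 and 5324 and 4841 CPM in wt and 6627 and 7448 CPM in Treml4-/- cells at M1-8 h. The GTPase Mx1 rose from 2.36 ± 0.246 to 1625 ± 422 CPM, Oasl1 from 7.804 ± 1.11 to 3485 ± 229 CPM, Ifit2 from 13.9 ± 0.857 to 4242 ± 1054 CPM and the ubiquitin-like Isg15 from 12.5 ± 1.17 to 1444 ± 92.5 CPM. At the other end, Oas3 and the RNA-editing enzyme Adar rose by 1.91 ± 0.07 and 2.00 ± 0.07 on the log2 scale. All 15 tested guanylate-binding proteins and immunity-related GTPases rose too, with a median of 6.16, from Iigp1 (0.415 ± 0.192 to 827 ± 349.5 CPM) and Gbp5 (3.67 ± 0.51 to 2285 ± 117 CPM) down to Gbp8 (0.292 ± 0.0763 to 3.01 ± 0.772 CPM). Several of these, such as Tgtp1 and Tgtp2, are near-identical copies.

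Among the factors that drive these genes, 8 of 15 IRF and STAT genes rose. Irf7 went from 38.6 and 40.1 CPM in wt and 51.1 and 44.8 CPM in Treml4-/- cells to 1872 and 1928 CPM in wt and 1602 and 1644 CPM in Treml4-/- cells, Stat2 from 70.03 ± 4.35 to 936 ± 19.3 CPM and Irf1 from 92.8 ± 5.29 to 1049 ± 108 CPM. Irf4, a factor of alternative activation, fell from 2.59 ± 0.207 to 0.166 ± 0.067 CPM, and Irf3, which is activated by phosphorylation downstream of TLR4, went from 38.6 ± 1.41 to 19.4 ± 1.25 CPM and was called lower on CPM only. Of 21 AP-1, CREB and C/EBP factors, 12 rose and 3 fell (57.1% and 14.3%, beside 17.1% and 31.4% of all genes tested). The rises were led by Batf2 (2.44 ± 0.26 to 234 ± 11.1 CPM), Batf and Crem. Among those that fell were Jun (99.9 ± 6.74 to 40.7 ± 5.196 CPM) and Cebpa, a factor of myeloid differentiation. Cebpa measured 226 and 244 CPM in wt and 213 and 208 CPM in Treml4-/- cells at M0 and 5.03 and 7.04 CPM in wt and 6.22 and 4.98 CPM in Treml4-/- cells at M1-8 h. Cebpb, the C/EBP factor of inflammatory genes, rose from 52.6 ± 5.87 to 163 ± 18.8 CPM.

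Promoters of 5 strongly risen genes are shown because each carries letters that NF-kB, interferon-activated factors or AP-1 are known to read, together with that of Mcm6, a replication gene that fell and carries the E2F letters. Each runs from 250 bases before to 50 bases after a start site, as RefSeq gives it in GRCm38.p6, on the strand of the gene. Capitals mark matches, on either strand, to the kB core GGGANNTTC, the interferon response element core GAAANNGAA, AP-1 (TGANTCA), E2F (TTTGGCGC) and the TATA box (TATAAA).
Cxcl9, chr5:92328030-92328329, minus strand: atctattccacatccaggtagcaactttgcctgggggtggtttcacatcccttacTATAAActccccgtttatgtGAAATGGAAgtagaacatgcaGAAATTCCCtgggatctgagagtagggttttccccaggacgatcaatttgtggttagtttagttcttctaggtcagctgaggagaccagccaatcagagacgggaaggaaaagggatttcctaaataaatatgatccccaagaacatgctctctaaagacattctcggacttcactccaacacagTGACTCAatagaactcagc
Cxcl10, chr5:92348840-92349139, minus strand: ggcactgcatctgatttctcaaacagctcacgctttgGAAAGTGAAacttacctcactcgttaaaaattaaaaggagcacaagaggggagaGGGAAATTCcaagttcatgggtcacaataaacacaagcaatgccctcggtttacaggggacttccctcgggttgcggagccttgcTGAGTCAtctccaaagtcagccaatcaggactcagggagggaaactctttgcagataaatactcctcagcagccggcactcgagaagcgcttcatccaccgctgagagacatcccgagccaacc
Gbp2, chr3:142620413-142620712, plus strand: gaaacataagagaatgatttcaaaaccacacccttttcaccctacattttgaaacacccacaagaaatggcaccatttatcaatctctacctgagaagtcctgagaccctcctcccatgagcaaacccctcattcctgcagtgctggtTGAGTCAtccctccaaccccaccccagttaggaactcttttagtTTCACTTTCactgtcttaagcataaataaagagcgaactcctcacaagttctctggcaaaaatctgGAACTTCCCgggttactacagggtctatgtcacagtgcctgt
Rsad2, chr12:26456403-26456702, minus strand: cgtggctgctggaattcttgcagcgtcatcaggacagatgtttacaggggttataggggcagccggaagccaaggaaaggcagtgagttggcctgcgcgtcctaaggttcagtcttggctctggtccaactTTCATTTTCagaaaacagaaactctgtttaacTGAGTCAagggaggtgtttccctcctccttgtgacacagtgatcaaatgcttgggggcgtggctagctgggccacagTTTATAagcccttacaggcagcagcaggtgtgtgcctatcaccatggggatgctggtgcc
Isg15, chr4:156200769-156201068, minus strand: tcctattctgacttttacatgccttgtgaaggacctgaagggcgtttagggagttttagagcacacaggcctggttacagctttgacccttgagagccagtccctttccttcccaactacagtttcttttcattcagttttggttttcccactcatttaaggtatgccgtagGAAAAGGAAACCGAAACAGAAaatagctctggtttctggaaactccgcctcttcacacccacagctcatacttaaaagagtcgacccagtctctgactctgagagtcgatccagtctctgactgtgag
Mcm6, chr1:128359656-128359955, minus strand: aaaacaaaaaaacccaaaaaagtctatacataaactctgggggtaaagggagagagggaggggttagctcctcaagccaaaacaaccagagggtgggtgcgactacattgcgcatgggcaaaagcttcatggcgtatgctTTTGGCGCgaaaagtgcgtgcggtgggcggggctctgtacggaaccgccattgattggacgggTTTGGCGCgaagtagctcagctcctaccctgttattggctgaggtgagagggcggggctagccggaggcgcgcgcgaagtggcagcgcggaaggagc

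In the Cxcl10 promoter the interferon response element core GAAAGTGAA began 213 bases before the start site, the kB core GGGAAATTC 159 bases before it and AP-1 (TGAGTCA) 74 bases before it. The neighbouring gene Cxcl9 carried the first 2 of these 175 and 154 bases before its start site, the kB core on the opposite strand as GAAATTCCC, and AP-1 31 bases after it. In the Isg15 promoter 3 interferon response element cores followed each other in overlap, from 78, 72 and 66 bases before the start site. The Rsad2 promoter held 1 on the opposite strand, TTCATTTTC, 119 bases before the start site, and AP-1 87 bases before it. The Gbp2 promoter held TTCACTTTC on the opposite strand 58 bases before the start site and a kB core, GAACTTCCC, also on the opposite strand, 8 bases after it. The Mcm6 promoter held the E2F letters at 110 and at 47 bases before the start site.

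Matches were counted over the 11729 promoters of 9183 tested genes found in the promoter table, which is 76.0% of the genes tested. Fewer than 80% of the genes had a promoter, so any check over the classes of genes is void, and the shares below describe the matched promoters only. The interferon response element core was found in 7.61% of all these promoters and in 29.9% of the 184 promoters of genes that rose at least 16-fold, in 15.2% for rises of 4- to 16-fold and in 10.1% for smaller rises. The kB core stood in 3.82% of all and in 10.9%, 6.87% and 3.91% of the same classes, and AP-1 in 5.36% of all and in 18.5%, 9.01% and 5%. The TATA box letters, counted anywhere in the 300 bases, stood in 20.7% of the promoters of genes that rose at least 16-fold, against 7.01% of all these promoters. Over every promoter available, of genes tested or not, the share was 13.6%. There it was 8.56% for the interferon response element core, 3.94% for the kB core and 7.81% for AP-1. Promoters of the class that rose at least 16-fold held a median of 6 CG pairs and 50.5% GC, against 20 and 60.7% over the promoters of genes tested. What part this difference in base composition had in the shares was not tested. The E2F letters were rare, in 0.98% of all promoters, in 1.4% of those of genes that fell at least 4-fold and in none of the 184. A match is a description of the letters and not evidence of binding.

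The enzymes that make microbicidal and inflammatory products moved in both directions. Of 24 tested members, 13 rose and 5 fell (54.2% and 20.8%, beside 17.1% and 31.4% of all genes tested). Around Nos2, the arginine transporter Slc7a2 rose from 7.27 ± 0.492 to 805 ± 105 CPM, Ass1, which remakes arginine, from 24.6 ± 3.698 to 275 ± 21.1 CPM, and Gch1, the first enzyme for the cofactor tetrahydrobiopterin, from 22.3 ± 1.58 to 102 ± 11.3 CPM. In the prostaglandin pathway Ptges rose with Ptgs2, from 11.5 ± 1.22 to 241 ± 36.3 CPM, while Ptgs1, which encodes COX-1, fell from 82.8 and 69.8 CPM in wt and 70.6 and 66.3 CPM in Treml4-/- cells to 6.84 and 4.75 CPM in wt and 6.21 and 4.57 CPM in Treml4-/- cells. The leukotriene genes Alox5 and Alox5ap fell (log2 difference −1.78 ± 0.12 and log2 difference −1.89 ± 0.07). The oxidase subunit Cybb rose from 1194 ± 134 to 2374 ± 254 CPM, Ncf4 fell from 369 ± 16.96 to 149 ± 12.8 CPM, and Ncf1 and Cyba depended on the scaling. Lysozyme, Lyz2, among the 10 most abundant transcripts at M0, fell from 12236 ± 2285 to 4949 ± 1125 CPM.

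Genes of glucose use rose more often than they fell. Of 23 glycolysis and lactate export genes, 14 rose and 4 fell (60.9% and 17.4%, beside 17.1% and 31.4% of all genes tested). Pfkfb3, which makes the activator of phosphofructokinase, went from 28.6 and 28.99 CPM in wt and 29.01 and 28.1 CPM in Treml4-/- cells to 822 and 763 CPM in wt and 853 and 868 CPM in Treml4-/- cells, the transporter Slc2a6 from 35.6 ± 7.75 to 834 ± 179 CPM, Pfkp from 148 ± 7.22 to 1036 ± 89.9 CPM and the lactate exporter Slc16a3 from 102 ± 5.68 to 436 ± 78.5 CPM. The glucose transporters differed, with Slc2a1 at 113 ± 6.01 and then 573 ± 59.6 CPM and Slc2a3 at 15.8 ± 0.993 and then 1.46 ± 0.232 CPM. The kinase-phosphatase genes differed as well, since Pfkfb4 fell from 73.2 ± 1.94 to 16.6 ± 1.91 CPM. Gapdh measured 2013 and 1785 CPM in wt and 2418 and 2108 CPM in Treml4-/- cells at M0 and 2433 and 2267 CPM in wt and 2050.5 and 1906 CPM in Treml4-/- cells at M1-8 h, with overlapping groups. Among 19 hypoxia-inducible factor genes 13 rose, including Hif1a itself (51.4 ± 7.35 to 562 ± 117 CPM), Hilpda (5.54 ± 0.514 to 98.3 ± 16.6 CPM) and Bnip3 (23.5 ± 3.36 to 182 ± 21.4 CPM), and 2 fell, Epas1 and Car9.

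No citrate cycle gene of 25 rose on both scalings and 8 fell, a share near the 31.4% of all genes tested, while 14 depended on the scaling. Idh1, the cytosolic isocitrate dehydrogenase, stood apart in size: it measured 399.9 and 327 CPM in wt and 352 and 342 CPM in Treml4-/- cells at M0 and 16.3 and 14.3 CPM in wt and 18.9 and 18.9 CPM in Treml4-/- cells at M1-8 h (log2 difference −4.30 ± 0.10), whereas the next largest were fumarase, Fh1 (log2 difference −2.15 ± 0.09), and Aco1 (log2 difference −2.03 ± 0.07). Of 38 respiratory chain genes, 2 rose, the electron carrier Cycs (31.7 ± 4.45 to 105 ± 8.03 CPM) and the complex I subunit Ndufs4 (23.6 ± 2.905 to 68.1 ± 5.93 CPM), 2 fell and 28 depended on the scaling. The median log2 difference of these subunits was −0.67 on CPM, near the −0.72 of all genes.

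Genes of cholesterol synthesis fell or had calls that depended on the scaling. Of 24 cholesterol synthesis genes none rose and 12 fell (50%, beside 31.4% of all genes tested), with a median log2 difference of −1.20 on CPM and −0.46 after median of ratios scaling. Dhcr7, which catalyses the last step, went from 26.7 and 30.4 CPM in wt and 31.6 and 28.8 CPM in Treml4-/- cells to 1.76 and 1.003 CPM in wt and 1.64 and 1.5 CPM in Treml4-/- cells, and Mvd and Sqle fell, with log2 differences of −3.18 ± 0.09 and −2.71 ± 0.11. Among 28 genes of lipid efflux and fatty acids, 11 fell and 3 rose (39.3% and 10.7%, beside 31.4% and 17.1% of all genes tested), so the share that fell was near that of all genes. The desaturase Fads1 fell from 174 and 169.9 CPM in wt and 175 and 177 CPM in Treml4-/- cells to 5.49 and 4.196 CPM in wt and 6.12 and 5.397 CPM in Treml4-/- cells. Fatty acid synthase, Fasn, fell from 88.2 ± 4.38 to 4.71 ± 0.661 CPM, and the lysosomal lipase Lipa from 3642 ± 60.8 to 493 ± 46.03 CPM. The 3 that rose were Ch25h, which makes 25-hydroxycholesterol (0.201 ± 0.0775 to 127 ± 41.9 CPM), the endothelial lipase Lipg (0.0243 ± 0.00952 to 36.1 ± 12.1 CPM) and Acsl1 (102 ± 6.66 to 528 ± 54.2 CPM). The cholesterol exporters Abca1 and Abcg1 had overlapping libraries, with 44.9 ± 5.68 and 169 ± 35.6 CPM at M1-8 h against 46.7 ± 4.74 and 147 ± 15.4 CPM at M0.

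Regulators of macrophage identity moved in both directions. Of 26 myeloid identity and homeostatic factors 9 fell and 8 rose, beside 31.4% and 17.1% of all genes tested, so that the share that fell was near that of all genes. The lipid-sensing nuclear receptor Pparg measured 33.6 and 38.2 CPM in wt and 38.9 and 36.9 CPM in Treml4-/- cells at M0 and 0.707 and 0.576 CPM in wt and 0.821 and 0.604 CPM in Treml4-/- cells at M1-8 h. Its partner Rxra went from 151 ± 9.397 to 13.2 ± 0.523 CPM, Nr1h3, which encodes LXRα, from 42.8 ± 4.67 to 13.6 ± 2.89 CPM, Tfeb, a regulator of lysosome genes, from 87.7 ± 9.697 to 6.497 ± 0.128 CPM, Id3 from 211 ± 9.203 to 7.59 ± 0.989 CPM, and Myc from 8.98 ± 1.64 to 0.517 ± 0.15 CPM. Maf was the largest rise (26.4 ± 3.27 to 172 ± 40.99 CPM), and Spi1, the gene of the lineage factor PU.1, was called on neither scaling (559 ± 45.03 and 402 ± 44.6 CPM). Csf1r, the M-CSF receptor, measured 5676 and 7203 CPM in wt and 5786 and 5521 CPM in Treml4-/- cells at M0 and 1193 and 1219 CPM in wt and 1200.3 and 1037 CPM in Treml4-/- cells at M1-8 h, with no overlap.

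Genes of cell division were among those that fell most on the log2(CPM + 1) scale. Kif20a, Anln, Cdc20, Ccna2 and Kif2c, which act in mitosis and cytokinesis, stood among the 10 largest with Cxcr4, Bmf, Rnf144b, Engase and Fam105a. Of 45 cell cycle and replication genes, 33 fell and 5 rose, with a median log2 difference of −2.88 on CPM and −2.13 after median of ratios scaling. Ccna2 (cyclin A2) went from 146 and 64.8 CPM in wt and 129 and 133 CPM in Treml4-/- cells to 0.969 and 0.279 CPM in wt and 1.299 and 1.702 CPM in Treml4-/- cells (log2 difference −5.84 ± 0.23), Kif20a from 194 and 116 CPM in wt and 191 and 183 CPM in Treml4-/- cells to 1.21 and 0.706 CPM in wt and 1.06 and 1.17 CPM in Treml4-/- cells, and Mki67, the proliferation marker Ki-67, from 484 ± 138 to 45.98 ± 10.5 CPM. The mitotic genes Cdc20, Plk1 and Top2a showed log2 differences of −5.94 ± 0.15, −5.61 ± 0.16 and −4.98 ± 0.30. Those of the replicative helicase subunits Mcm3 and Mcm6 were −1.78 ± 0.14 and −2.89 ± 0.20, and Mcm4, Mcm5, Pcna and Tyms depended on the scaling. The members that rose were the 3 D-type cyclins, cyclin E1 and the cyclin-dependent kinase inhibitor p21. Ccnd2 went from 0.225 ± 0.0517 to 114 ± 30.2 CPM, Ccnd1 from 24.3 ± 4.85 to 150.4 ± 8.23 CPM, Ccnd3 from 52.3 ± 2.59 to 92.8 ± 11.8 CPM, Ccne1 from 3.67 ± 0.86 to 8.03 ± 1.896 CPM and Cdkn1a (p21) from 220.3 ± 20.4 to 871 ± 122 CPM.

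Genes that hold back or drive cell death mostly rose. Of 26 BCL2 family members and death regulators 16 rose, led by the anti-apoptotic Bcl2a1d, Bcl2a1b and Bcl2a1a, near-identical copies whose reads may be shared, with 165 ± 26.2, 48.01 ± 5.91 and 26.4 ± 3.28 CPM at M1-8 h against 1.49 ± 0.468, 0.751 ± 0.0953 and 0.199 ± 0.0576 CPM at M0. Cflar (c-FLIP) rose from 76.3 ± 11.04 to 1007 ± 149 CPM, and the death receptor Fas and the necroptosis effector Mlkl rose as well, from 7.28 ± 0.597 and 22.6 ± 5.12 to 74.9 ± 6.88 and 174 ± 10.5 CPM. The pro-apoptotic Bmf was the one that fell, from 136 and 140.1 CPM in wt and 137 and 134 CPM in Treml4-/- cells to 0.424 and 0.761 CPM in wt and 1.33 and 0.878 CPM in Treml4-/- cells. Among 18 inflammasome genes 7 rose, with Nlrp3 at 52.1 ± 5.52 and then 459.6 ± 48.96 CPM, Casp4, the sensor of LPS in the cytosol, at 15.3 ± 1.22 and then 240.0 ± 64.1 CPM, and Il18bp at 5.09 ± 0.56 and then 145 ± 11.4 CPM, and 3 fell, with Dfna5 (Gsdme) from 40.5 ± 2.99 to 1.66 ± 0.338 CPM and the ATP receptor P2rx7 from 75.3 ± 4.64 to 20.5 ± 2.302 CPM. These were 38.9% and 16.7% of the list, beside 17.1% and 31.4% of all genes tested.

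Molecules of antigen presentation and of contact with T cells mostly rose. Cd40 went from 5.07 and 5.72 CPM in wt and 3.32 and 4.12 CPM in Treml4-/- cells to 2325 and 2546 CPM in wt and 2074 and 1834 CPM in Treml4-/- cells, Cd69 from 0.528 ± 0.195 to 469 ± 94.2 CPM, Cd86 from 2.86 ± 0.839 to 394 ± 75.3 CPM and Cd80 from 2.76 ± 0.431 to 11.8 ± 3.83 CPM. The inhibitory ligands Cd274 (PD-L1) and Pdcd1lg2 (PD-L2) rose from 72.5 ± 4.76 and 0.339 ± 0.117 to 2861 ± 333 and 45.9 ± 3.02 CPM. In all, 16 of 23 costimulatory and adhesion genes rose and 2 fell, Icosl and 4632428N05Rik (the checkpoint gene Vsir, 679 ± 76.5 to 103 ± 21.6 CPM). Of 20 MHC class I and processing genes 18 rose and none fell, among them the peptide transporter Tap1 (60.7 ± 1.18 to 809 ± 91.2 CPM) and the transactivator Nlrc5 (43.5 ± 5.68 to 586 ± 16.1 CPM). MHC class II genes were mixed, with 5 of 15 risen and 1 fallen (33.3% and 6.7%, beside 17.1% and 31.4% of all genes tested). H2-Ab1 rose from 85.2 ± 43.4 to 311 ± 94.2 CPM and Cd74 from 381 ± 182 to 913 ± 275 CPM, and Ifi30 fell. Ciita, the transactivator of MHC class II genes, was at 34.7 ± 3.75 and then 23.7 ± 2.24 CPM with a direction that depended on the scaling.

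Surface receptors for uptake moved in both directions. Of 29 tested members 12 rose and 8 fell (41.4% and 27.6%, beside 17.1% and 31.4% of all genes tested), so the share that fell was near that of all genes. The Fc receptors Fcgr4 (24.5 ± 1.17 to 1071 ± 80.3 CPM), Fcgr1, Fcgr2b and Fcgr3 rose, as did Marco, the lectin Clec4e (Mincle), and both Mertk (33.3 ± 4.801 to 274 ± 22.6 CPM) and Axl (205 ± 45.5 to 726 ± 91.6 CPM), receptors for dying cells. Scarb1 (328 ± 27.9 to 46.6 ± 5.43 CPM), Stab1 (665 ± 69.2 to 134 ± 17.3 CPM), Trem2 (1057 ± 98.8 to 266 ± 26.9 CPM) and Gas6, a ligand of Axl and Mertk (56.3 ± 1.27 to 11.8 ± 1.15 CPM), fell. Lrp1, a large endocytic receptor and one of the 10 largest losses in reads, fell from 5224 ± 382 to 872 ± 148 CPM. The mannose receptor Mrc1 was called on neither scaling (56.2 ± 12.9 and 46.01 ± 13.2 CPM). Of 12 alternative activation markers 4 rose and 5 fell (33.3% and 41.7%, beside 17.1% and 31.4% of all genes tested). Those that rose included Il4ra, the interleukin-4 receptor chain (129.8 ± 6.82 to 2045 ± 223 CPM), and Arg1, from 0.175 ± 0.102 to 5.697 ± 2.62 CPM.

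Secreted and metal-binding proteins changed as well. Among 26 complement and coagulation genes 14 rose and 4 fell (53.8% and 15.4%, beside 17.1% and 31.4% of all genes tested). C3 rose from 128 ± 20.1 to 3552 ± 998 CPM, the protein C receptor Procr from 67.1 ± 7.07 to 4026 ± 403 CPM and coagulation factor X, F10, from 60 ± 7.22 to 866 ± 219.6 CPM. Those that fell included thrombomodulin, Thbd (15.4 ± 0.846 to 0.623 ± 0.132 CPM). Collagenase Mmp13 rose from 28.8 and 29.3 CPM in wt and 36.4 and 35.2 CPM in Treml4-/- cells to 2938 and 2387 CPM in wt and 3717 and 3997 CPM in Treml4-/- cells and Mmp14 from 50.6 ± 6.27 to 727 ± 71.2 CPM. Of 19 matrix genes 6 rose and 6 fell (31.6% each, beside 17.1% and 31.4% of all genes tested), so the share that fell was that of all genes. In iron handling, ferritin light chain, Ftl1, fell from 22094 ± 840.5 to 6524 ± 612 CPM, Hmox1 rose from 578 ± 41.7 to 1919 ± 126 CPM, and 11 of 16 acute-phase, iron and metal genes rose. Of 21 NRF2 targets and antioxidant genes 6 rose and 10 fell (28.6% and 47.6%, beside 17.1% and 31.4% of all genes tested). Among those that rose were the cystine importer Slc7a11 (26.3 ± 2.704 to 219.5 ± 47.5 CPM) and Prdx5 (193 ± 20.1 to 1326 ± 206 CPM). Among those that fell were transketolase, Tkt, Nqo1 and catalase, Cat (1150.4 ± 108 to 295 ± 47.6 CPM).

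For many genes of the basal machinery the call depended on the scaling. Of 49 cytosolic ribosomal protein genes, 47 were lower on CPM but 2 fell on both scalings, Rpsa (1661 ± 139 to 649 ± 81.2 CPM) and Rps2, and their median was −1.01 on CPM and −0.21 after median of ratios scaling. Of 31 proteasome subunits 25 were higher after median of ratios scaling and 4 rose on both, the alpha subunits Psma4, Psma3, Psma5 and Psma6. Mitochondrial ribosomal proteins had 11 of 36 members fallen, a share near the 31.4% of all genes tested, and none risen. Lysosomal genes had 8 of 35 members fallen (22.9%), a share under the 31.4% of all genes tested, and 2 risen. Their median on CPM was −0.73, near the −0.72 of all genes. Single members moved further, with Ctsd (cathepsin D) from 8918 ± 935 to 2866 ± 336 CPM and Ctsc (cathepsin C) from 99.5 ± 14.01 to 1760.4 ± 98.5 CPM. Of 28 stress response genes 6 rose, such as the chaperone Hspa5 (433 ± 40.7 to 1152 ± 128 CPM), and 2 fell, Ern1 and Sesn2. These were 21.4% and 7.1% of the list, beside 17.1% and 31.4% of all genes tested.

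**Figure D4:**
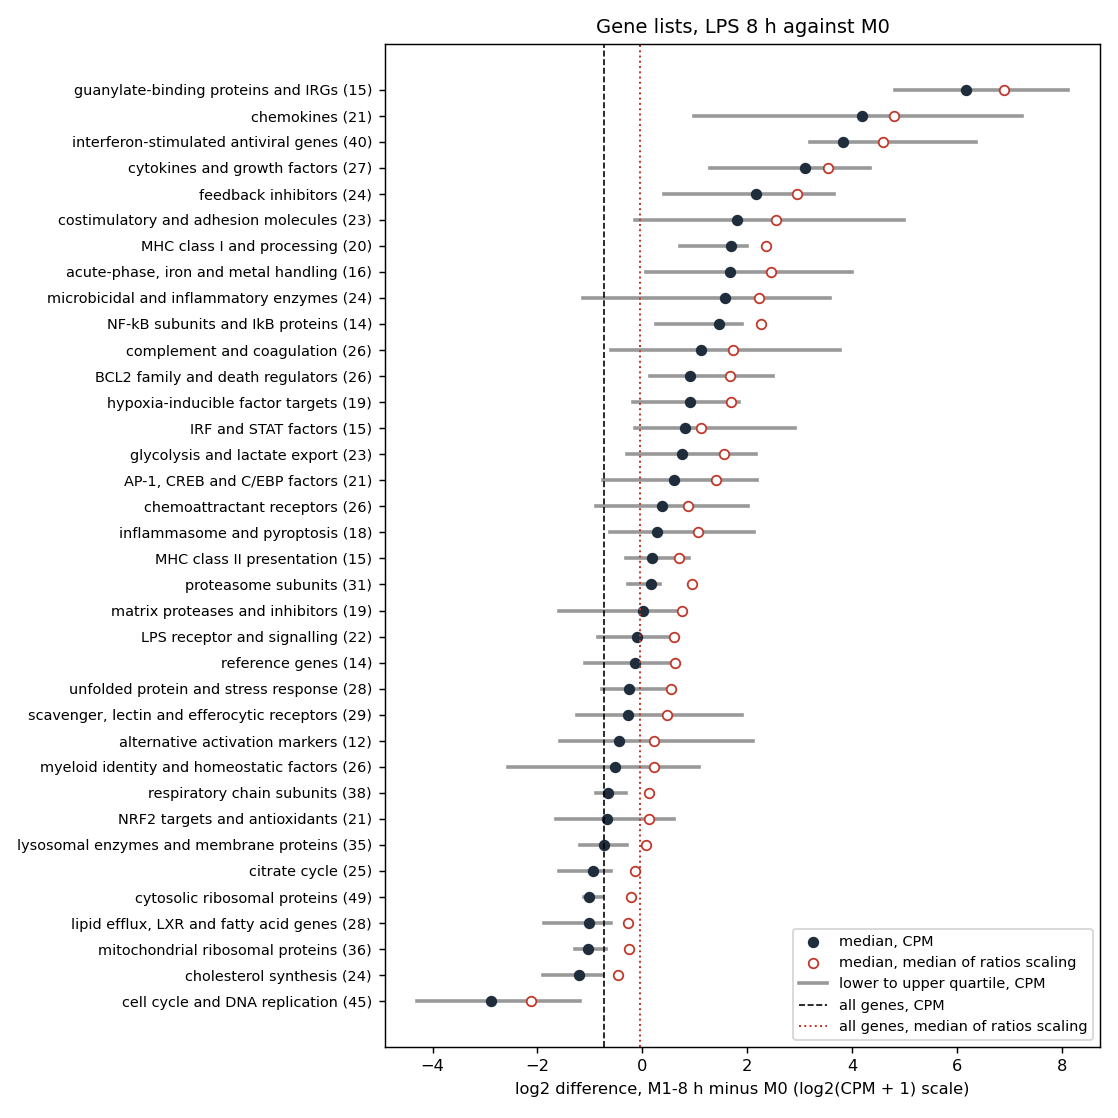
Median log2 difference (x axis, M1-8 h minus M0) of the tested members of each of 36 gene lists (y axis, number tested in brackets), on CPM (filled circles) and after median of ratios scaling (open circles), with bars for the range from the lower to the upper quartile of the members on CPM. Dashed and dotted lines mark the medians of all genes tested, −0.72 and −0.04; guanylate-binding proteins and cell cycle genes lie at the ends.

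Genes often used as references moved in both directions. Of 14 such genes 5 rose and 3 fell (35.7% and 21.4%, beside 17.1% and 31.4% of all genes tested). Actb measured 3649.6 and 3866 CPM in wt and 3673 and 3718 CPM in Treml4-/- cells at M0 and 12485 and 10414 CPM in wt and 10094 and 10471 CPM in Treml4-/- cells at M1-8 h, with no overlap, and B2m rose from 1129 ± 74.8 to 2693 ± 290.3 CPM. Polr2a, the largest subunit of RNA polymerase II, fell from 443 ± 28.3 to 125 ± 8.19 CPM. Hprt went from 106 ± 6.92 to 118 ± 15.6 CPM with overlapping libraries, and its log2 difference was 0.93 after median of ratios scaling. Tbp was called on neither scaling, with 13.7 ± 0.949 and 10.6 ± 0.608 CPM.

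The libraries carried macrophage markers throughout. Emr1 (Adgre1, F4/80) measured 1980.3 and 2102 CPM in wt and 1823 and 1838 CPM in Treml4-/- cells at M0 and 1673 and 1783 CPM in wt and 1663 and 1556 CPM in Treml4-/- cells at M1-8 h, and all 12 macrophage identity genes were detected in both groups, with a summed level of 29781 to 38864 CPM at M0 and 17614 to 22418 CPM at M1-8 h. The 12 neutrophil markers summed to 290.2 to 522 CPM at M0 and 155 to 233 CPM at M1-8 h, of which Mmp8, at 322 ± 60.7 and 106 ± 18.7 CPM, made up most, and none had 0 reads in either group. The 10 dendritic cell markers summed to 1.18 to 1.85 CPM at M0 and 21.1 to 32.5 CPM at M1-8 h. The 4 of these that were tested passed the filter only through libraries given LPS, and the other 6 stayed under it in both groups, Flt3 with 106 reads at M0 and 28 at M1-8 h. Xcr1, with no reads at M0, reached 5.33 ± 1.42 CPM, at least 364-fold higher than 3 reads over the 4 M0 libraries. Lymphocyte markers summed to 29.2 to 35.5 CPM at M0 and 2.84 to 3.86 CPM at M1-8 h, and 3 of the 12 passed the filter, Ighm among them, which fell from 21.7 ± 1.82 to 1.604 ± 0.349 CPM. Mast cell, basophil and eosinophil, erythroid and megakaryocyte, and stromal markers stayed at or under 14.8 CPM in sum in every library, and of these Pecam1 (0.672 ± 0.269 to 8.35 ± 0.926 CPM) and Cdh5 rose. What part other cell types had in the response was not tested.

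The response was then compared between the genotypes. Fitted within one genotype (2 against 2 libraries), 1982 genes were higher and 7305 lower in wt cells, and 2134 and 7019 in Treml4-/- cells on CPM. Of these, 1884 were higher and 6738 lower in both, and none was called in opposite directions. The log2 differences of wt and Treml4-/- cells had a Pearson correlation of 0.988 across the 12086 genes, which are not independent replicates. The interaction of genotype and LPS, which tests the difference between the responses, was called for 1 gene, on either scaling, and 592 genes (4.90%) had an unadjusted p under 0.05 on CPM. That gene was Pydc3, a member of the PYHIN family of interferon-inducible genes. Pydc3 measured 0.0193 and 0.0787 CPM in wt and 0.55 and 0.636 CPM in Treml4-/- cells at M0 and 8.498 and 10.1 CPM in wt and 285 and 366 CPM in Treml4-/- cells at M1-8 h, so that it was higher in Treml4-/- cells both before and after LPS, and its log2 difference was 3.29 in wt and 7.67 in Treml4-/- cells, differing by −4.38 ± 0.22 (SE, limma adjusted p = 2.26e-04). On the deposited log2 CPM, which have no added CPM, the responses differed by −1.39 ± 0.68 and the interaction was not called (adjusted p = 0.814). Over the 19 alternatives its adjusted p ran from 1.60e-06 to 0.841. Its relatives in sequence, such as Pydc4 and Ifi205, may share reads with it. Of the genes named above, none other was called for the interaction.

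Exon numbers were the highest of any GENCODE M21 transcript of a gene, and lengths and GC content were those of its longest transcript. The genes that rose at least 16-fold had a median of 6 exons and a GC content of 46.8%, against 9 exons and 49.6% over all genes tested. The genes that fell at least 4-fold had 10 exons and 52.2%. Median transcript lengths were 2873, 3236 and 3651 bases in the same order, and 99.1% of the genes tested had a value. The genes that rose at least 16-fold started from a median of 2.001 CPM at M0 and reached 205 CPM, while those that fell at least 4-fold went from 33.95 to 3.44 CPM.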

How the data were processed

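Poly(A)-selected RNA of BMDM was sequenced as stranded paired-end libraries, 2 per genotype and condition by the labels, which do not say whether replicates are separate mice, so p-values measure the spread between these samples. The authors processed the reads in the CCBR workflow (STAR, Subread), with mm10 named in the submitters' processing notes, and deposited log2 CPM with a prior of 0.25 reads for 43280 genes. Counting with or without strand is not given in the sources used here, so overlapping and antisense genes may share reads.

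Taking the prior away gave whole reads (within 0.01) for 100% of values, from which CPM were computed. The design had assumed CPM. Genes had to reach 1 CPM in 2 or more of the 12 libraries. The 12086 that did were analysed on the log2(CPM + 1) scale by limma 3.58.1 (R 4.3.3), with a trend in the prior variance and genotype as covariate. Median of ratios factors came from the 14205 genes detected in all 12 libraries. They were 1.38 to 1.52 at M0 and 0.79 to 0.89 at M1-8 h. Replicates of a condition differed beyond sampling noise (chi-square of 11.3 or above per degree of freedom) and stayed separate. One read was worth 0.0171 to 0.0204 CPM in the 8 libraries, and count-based limits cover counting error only. On simulated counts for this comparison and 12086 genes, the test recovered 1 of 50 genes changed 1.4-fold and 25 of 50 changed 2-fold. It recovered all 50 changed 4-fold and all 50 changed 8-fold, and called 3 unchanged genes. Whether the simulated counts had the spread of the 8 libraries, where the median SE was 0.095 on CPM, was not tested. The recovered numbers therefore describe the simulation only.

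The comparison, the gene lists and the rule for named genes (the largest rises, falls, gains, losses and levels, up to 4 members of a list in its main direction and 2 in the other, and members with a defining role) were chosen with earlier results of these data known. Further list members, the genes of the promoter lines and the gene families of the closing section were chosen after their values were seen. List members not tested were under the filter, and 1 member of the lists, Gbp10, was not analysed here. Some list members are counted but not reported here by name. Promoters came from RefSeq (GRCm38.p6) and transcripts from GENCODE M21, both matched by symbol or synonym, in Python 3.11.15. Alternatives were another pseudocount, the deposited scale, other filters and scalings, a replicate block, all 12 libraries, 1 genotype, no trend, voom, other fold limits and leaving out each library.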

Additional observations from a re-analysis of the deposited data

Results flagged for a closer look

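In 68 groups of 4 libraries (the genes given library by library, and total reads, mitochondrial share, size factor and share of the top 100 genes), 7 had 1 library apart from the other 3, with the gap to its neighbour, over the range of the 4, above the critical value of Dixon's test at the 95% level. Chance alone sets a library apart in about 1 in 20 such groups. At M0 these were Il1rn, lowest in wt replicate 1 (25.7 CPM, gap over range 0.902), Csf1r, highest in wt replicate 2 (7203 CPM, 0.842), and Kif20a, lowest in wt replicate 2 (115.7 CPM, 0.864). Ccna2 was also lowest in that library (146 and 64.8 CPM in wt and 129 and 133 CPM in Treml4-/- cells), and the summed level of the 45 cell cycle genes ran from 2682 to 4336 CPM over the M0 libraries. At M1-8 h they were Nos2 (gap over range 0.873) and Actb (0.843), both highest in wt replicate 1, Cxcr4, highest in wt replicate 2 (0.840), and Csf1r, lowest in Treml4-/- replicate 2 (1037 CPM, 0.859). In each of these genes the M0 and M1-8 h libraries still did not overlap, which the ranking of the largest rises and falls required of Nos2, Cxcr4 and Kif20a.

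The wt response of Pydc3 differed from the Treml4-/- response by −4.38 on the log2(CPM + 1) scale. In the deposited scale this difference was −1.39, and Pydc3 was higher in every Treml4-/- library than in every wt library of the same condition.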

How the results depend on the processing

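The counts moved with the scaling of the libraries and with the fold limit. Against 2067 genes higher and 7226 lower on CPM, median of ratios scaling gave 3760 and 3794, upper quartile scaling 3864 and 3677, and quantile normalization 3361 and 4342. Of the genes called on CPM and median of ratios scaling alike, 2067 of 2067 higher and 3677 of 3794 lower were also called with upper quartile scaling, and 2041 and 3414 with quantile normalization. Upper quartile factors were near those of median of ratios scaling, at 1.39 to 1.56 at M0 and 0.80 to 0.87 at M1-8 h. The agreement with upper quartile scaling was therefore largely fixed in advance. Requiring at least 2-fold left 1363 higher and 4601 lower, and at least 4-fold 662 and 1363. Leaving out each library in turn gave 2012 to 2131 higher and 7089 to 7310 lower on CPM, and 3712 to 3795 and 3744 to 3836 after median of ratios scaling, and 1938 of the 2067 and 3518 of the 3794 genes were called in every one of these fits. Of 201 named genes that rose or fell, all kept their direction under each of the 21 alternatives that gave them a value (Il33 and Irf4 were not tested with the filter at 5 CPM), and 3 (Jun, Lyz2 and Ncf4) were not called with upper quartile scaling. These 201 genes were chosen as called alike on CPM and median of ratios scaling, and the latter is among the 21 alternatives. Most other alternatives refit the same libraries, so this agreement was largely a condition of the choice. Among named genes whose call depended on the scaling or that were not called, Abca1 turned to 0.73 with median of ratios and 0.76 with upper quartile scaling, Emr1 to 0.59 and 0.62, Ciita to 0.24 and 0.27 (0.13 with quantile normalization), Mrc1 to 0.51 with upper quartile scaling and Tbp to 0.58 with quantile normalization, all in log2. Median of ratios and upper quartile scaling differ from CPM by 1 factor per library, whereas quantile normalization replaces each library's distribution.

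With a replicate block, 2073 genes were higher and 7227 lower, and the interaction was called for 1 gene. The labels do not say that replicate numbers mark one animal or culture, and the deviations of same-numbered M0 and M1-8 h libraries correlated at 0.12 in wt and 0.46 in Treml4-/- cells. The paired fit changed none of these counts by over 1.5 times. The interaction count was 1 on CPM, 0 with a pseudocount of 0.1, on the deposited log2 CPM and with voom, 2 with no filter, and 1 to 3 when a library was left out (3 without wt M0 replicate 2 and 2 without wt LPS 8 h replicate 1). The fits on 1 genotype rest on 2 against 2 libraries. Depth limits genes near 1 CPM more than others, and their differences are compressed by the added 1 CPM.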

Other observations

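Further gene families were picked, after their values were seen, from a tabulation of gene symbols that share a stem and have at least 8 tested members. Of all genes tested, 17.1% rose and 31.4% fell. The distance of these families from those shares was a condition of their choice. All 8 tested schlafen genes, interferon-inducible genes linked to growth arrest and antiviral defence, rose, with a median log2 difference of 3.97. Slfn1 went from 0.75 ± 0.131 to 229.5 ± 28.8 CPM, Slfn4 from 0.344 ± 0.281 to 148 ± 91.97 CPM and Slfn5 from 81.9 ± 4.29 to 1442 ± 205 CPM. Of 30 kinesin genes, motors of the spindle and of transport, 20 fell and 2 rose; Kif11 and Kif20a among them are also in the cell cycle list.

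Of 8 chromobox genes, which encode Polycomb and heterochromatin readers, 6 fell, with a median log2 difference of −2.12 on CPM and −1.54 after median of ratios scaling, and none rose. Cbx6 went from 11.9 ± 2.704 to 0.606 ± 0.199 CPM and Cbx7 from 12.2 ± 0.939 to 0.711 ± 0.147 CPM. Of 11 histone deacetylases 6 fell, Hdac5 from 215 ± 8.16 to 17.3 ± 1.75 CPM, and 1 rose, Hdac1, from 70.8 ± 4.83 to 317 ± 19.02 CPM. Of 9 genes of the RNA exosome 6 fell, with a median log2 difference of −1.84 on CPM, against −0.72 over all genes tested. All these counts are of genes called on both scalings, on which 17.1% of all genes tested rose and 31.4% fell.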
